A study of Mus musculus with 16 samples.

Results

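The genes described here encode the enzymes of glycolysis and the response to low oxygen. They were taken from a list of 33 symbols, 17 for glucose uptake and glycolysis and 16 for the hypoxia-inducible factor (HIF) pathway and its other targets. Each gene was read from the probe set annotated to its symbol alone that had the highest mean over all 16 arrays, on the log2 scale. Gpi1 and Eno1 had no such probe set and were dropped, which left 31 genes (15 for glycolysis and 16 for HIF) of the 18194 genes measured. The samples were air-liquid-interface cultures of airway epithelial cells from C57BL/6 mice, in which cells grow on a support with medium below and air above. The 4 groups of 4 cultures were Mmp7-/- (Mmp7-null) cultures with scratch injury, Mmp7-null cultures without injury, wild-type cultures with scratch injury and wild-type cultures without injury. Injury was made as 3 parallel scratches with a pipet tip, and cells of all 4 groups, the uninjured ones included, were kept without serum for 24 hours ahead of harvest. The labels give neither the time from scratching to RNA isolation nor the animals behind the cultures, so p-values measure only the spread between these cultures, which may be technical. RNA of each culture was hybridised to 1 Affymetrix array.

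Glycolysis converts glucose to pyruvate, which lactate dehydrogenase can reduce to lactate. Under low oxygen the prolyl hydroxylases that mark HIF-1α for destruction slow down, and the stabilised factor pairs with ARNT on DNA. Its elements often hold the core ACGTG, and it raises transcription of glucose transporters, glycolytic enzymes and genes for vessel growth, pH control and mitophagy. HIF is controlled largely through the stability of its protein, which an expression array does not measure. Bulk RNA cannot separate fewer cells of a type from less RNA per cell, and this holds for every value below.

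Promoter sequences were read from RefSeq (GRCm38.p6, 250 bases before to 50 bases after the gene start) for 30 of the 31 genes. The ACGTG core, searched on both strands with overlapping matches on the palindrome CACGTG counted as 1 site, was present for 23 of these 30 genes (76.7%), 11 of 15 for glycolysis and 12 of 15 for HIF. Of all measured genes with an entry it was present in 3761 of 14368 (26.2%), counted per gene as for the members. Counted per promoter, it was present in 26 of 42 promoters of the members (61.9%) and in 6447 of all 32851 (19.6%). The list was drawn up from HIF targets in part, and a match describes the letters only, not binding in these cultures. Below, Hk2 and P4ha2, each with 2 sites, moved in opposite directions on scratching. Slc2a1 has 1 site and Ldha 3 in its first entry, and Pfkl and Adm have no match to ACGTG in this window. Other forms of the element were not searched, so a missing match does not mean a missing HIF element. The capitals mark the core on either strand. The promoters lie at chr6:82774405-82774704 (minus strand) for Hk2, chr11:54100674-54100973 (plus strand) for P4ha2, chr4:119108495-119108794 (plus strand) for Slc2a1, chr7:46845554-46845853 (plus strand) for Ldha, chr10:78009758-78010057 (minus strand) for Pfkl and chr7:110627407-110627706 (plus strand) for Adm. All are printed 5′ to 3′ on the strand of the gene.
Hk2: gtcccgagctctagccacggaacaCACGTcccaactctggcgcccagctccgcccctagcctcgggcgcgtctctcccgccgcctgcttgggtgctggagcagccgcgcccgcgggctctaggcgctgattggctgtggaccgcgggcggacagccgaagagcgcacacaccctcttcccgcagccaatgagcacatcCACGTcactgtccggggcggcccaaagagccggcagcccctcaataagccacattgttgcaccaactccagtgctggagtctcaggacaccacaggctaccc
P4ha2: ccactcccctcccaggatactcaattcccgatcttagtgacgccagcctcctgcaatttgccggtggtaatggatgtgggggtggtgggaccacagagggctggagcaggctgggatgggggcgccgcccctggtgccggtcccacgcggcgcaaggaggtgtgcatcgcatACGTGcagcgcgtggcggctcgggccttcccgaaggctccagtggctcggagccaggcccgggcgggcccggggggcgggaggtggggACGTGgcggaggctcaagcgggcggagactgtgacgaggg
Slc2a1: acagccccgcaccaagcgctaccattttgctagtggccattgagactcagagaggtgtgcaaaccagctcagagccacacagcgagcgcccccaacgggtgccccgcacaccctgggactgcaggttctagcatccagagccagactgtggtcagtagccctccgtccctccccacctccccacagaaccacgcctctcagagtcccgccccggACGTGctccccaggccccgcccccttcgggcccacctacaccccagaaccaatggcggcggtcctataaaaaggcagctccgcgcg
Ldha: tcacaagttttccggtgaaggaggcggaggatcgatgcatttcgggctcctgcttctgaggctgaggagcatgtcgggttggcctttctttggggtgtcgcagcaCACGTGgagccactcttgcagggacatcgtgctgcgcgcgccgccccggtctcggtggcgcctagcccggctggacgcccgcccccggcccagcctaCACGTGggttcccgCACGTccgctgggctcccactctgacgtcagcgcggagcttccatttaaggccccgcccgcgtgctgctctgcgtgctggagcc
Pfkl: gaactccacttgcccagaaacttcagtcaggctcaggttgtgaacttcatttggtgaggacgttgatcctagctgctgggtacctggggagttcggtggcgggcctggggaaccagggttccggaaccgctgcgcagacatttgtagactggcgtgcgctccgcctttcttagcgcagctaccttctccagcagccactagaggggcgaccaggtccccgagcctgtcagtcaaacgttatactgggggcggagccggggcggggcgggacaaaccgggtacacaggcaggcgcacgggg
Adm: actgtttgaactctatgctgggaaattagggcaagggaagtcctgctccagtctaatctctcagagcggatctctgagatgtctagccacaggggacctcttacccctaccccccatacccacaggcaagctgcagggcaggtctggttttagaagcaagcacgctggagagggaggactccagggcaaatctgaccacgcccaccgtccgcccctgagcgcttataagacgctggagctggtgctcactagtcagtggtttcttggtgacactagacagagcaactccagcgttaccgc

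Of the 31 genes, 28 had a mean above background, which was set at 2.97 on the log2 scale from control transcripts absent from an array. The other 3 were Slc16a3, the lactate exporter MCT4, and the carbonic anhydrases Car9 and Car12. Among them, Car9 reached 3.16 on 1 Mmp7-null scratched array. Gapdh is represented by control probe sets of the array alone. Mmp7 itself averaged 2.31 ± 0.19 and 2.15 ± 0.02 in scratched and uninjured Mmp7-null cultures and 2.17 ± 0.05 and 2.16 ± 0.01 in scratched and uninjured wild-type cultures (SD, n = 4 each). These are background levels in every group, so Mmp7 does not check the genotype labels. The epithelial markers Epcam, Cdh1, Krt8 and Krt18 were all above background, and the endothelial markers Pecam1, Cdh5, Tek and Kdr were all at background. Control transcripts added during the assay divide the arrays into 3 sets. The Lys set holds 4 Mmp7-null arrays (scratched 1 and 4, uninjured 1 and 2), the Phe set holds 6 arrays (scratched 2 and 3 and uninjured 3 and 4 of Mmp7-null, and replicate 1 of both wild-type groups), and the Trpn set holds the 6 other wild-type arrays. Only the Phe set holds both genotypes. Each wild-type group has 1 array there, so p-values within the Phe set that involve wild-type cultures take their spread from other arrays. What the sets stand for is not stated, so they were treated as a possible batch. In addition 3 arrays stood apart: Mmp7-null scratched 1 and wild-type scratched 3 had the lowest upper quartiles of log2 signal (6.90 and 6.85, against 6.97 to 7.07 on the others), and wild-type scratched 4 had a gap of 2.62 between the 3′ and 5′ ends of the actin control, against at most 1.93 elsewhere.

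On scratching, the glucose transporter Slc2a1 and hexokinase 2 rose in both genotypes, while none of the listed enzymes of the later steps rose in either. Pkm fell in Mmp7-null cultures, and Pfkl and Pfkfb3 fell in wild-type cultures. In Mmp7-null cultures 2 of the 15 glycolysis genes rose, 1 fell and 12 did not pass an adjusted p of 0.05. In wild-type cultures 2 rose, 2 fell and 11 did not pass. Over all 31 genes 4 rose and 2 fell in Mmp7-null cultures, where 4.72% of all genes were called (2.26% higher and 2.45% lower). In wild-type cultures 3 rose and 3 fell, where 4.86% of all genes were called (2.56% higher and 2.3% lower). The called members are thus 6 of 31 in each genotype, and 4 of the 6 in each were the same genes (Slc2a1, Hk2, Ndrg1 and P4ha2). The median log2 fold change of the 31 genes was 0.02 in Mmp7-null and 0.01 in wild-type cultures, against -0.02 and 0.01 over all genes. The Mmp7-null count depended on single arrays and was 3 without uninjured array 2, 3 or 4.

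Hk2 encodes hexokinase 2, the inducible isoform that phosphorylates glucose on entry. Its log2 intensities were 9.58, 9.56, 9.62 and 9.63 in scratched Mmp7-null cultures, against 8.85, 8.81, 9.16 and 9.18 in uninjured Mmp7-null cultures. In wild-type cultures they were 9.81, 9.82, 9.66 and 9.76 with scratch and 9.33, 9.26, 9.26 and 9.24 without. Every scratched array lay above every uninjured array of its genotype. The change was 0.59 in Mmp7-null (SE 0.07, adjusted p = 0.00055, 1.51-fold) and 0.49 in wild-type cultures (SE 0.07, adjusted p = 0.0012, 1.41-fold). In uninjured Mmp7-null cultures the Lys arrays (8.85 and 8.81) were below the Phe arrays (9.16 and 9.18), and the change was 0.77 within the Lys set and 0.42 within the Phe set. Both values passed the test (adjusted p = 0.00064 and 0.014), as did the wild-type change within the Trpn set (0.50, adjusted p = 0.00046). Within the Phe set the wild-type change was 0.49, from 1 scratched and 1 uninjured array. Hk2 was called under all 29 alternative settings in both genotypes.

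Slc2a1 encodes GLUT1, the basal glucose transporter. Its values were 10.72, 10.87, 10.99 and 10.91 in scratched Mmp7-null cultures, against 10.80, 10.51, 10.62 and 10.57 without scratch. In wild-type cultures they were 11.26, 11.14, 11.13 and 11.19 with scratch, against 10.87, 10.98, 10.94 and 10.89 without. The wild-type groups did not overlap. The Mmp7-null groups did, since uninjured array 1 lay above scratched array 1. The increase was 0.25 (SE 0.06, adjusted p = 0.042) in Mmp7-null and 0.26 (SE 0.06, adjusted p = 0.033) in wild-type cultures, about 1.19-fold and 1.20-fold. Both calls were lost with the control set as a block (adjusted p = 0.072 and 0.062), at the same sizes. Hk1, the constitutive hexokinase, gave 0.30 (SE 0.09, adjusted p = 0.082) in Mmp7-null and 0.21 (SE 0.09, adjusted p = 0.26) in wild-type cultures and did not pass in either. All 3 genes for uptake and hexokinase had positive values in both genotypes.

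Pfkl encodes the liver isoform of phosphofructokinase, the enzyme of the committed step. In wild-type cultures its values were 8.85, 8.96, 8.98 and 9.09 with scratch, against 9.41, 9.45, 9.49 and 9.72 without. It fell by 0.55 on the log2 scale there (SE 0.08, adjusted p = 0.00062), and a second probe set gave -0.53. In Mmp7-null cultures the values were 8.85, 8.84, 9.05 and 9.0 with scratch and 8.81, 8.96, 9.02 and 9.01 without, a change of -0.02 (SE 0.08, adjusted p = 0.93). The uninjured wild-type arrays thus stood above the 12 others, which overlapped among themselves. The wild-type decline was -0.55 within the Trpn set (adjusted p = 0.01) and -0.56 within the Phe set, where it compares 1 array with 1.

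Pfkfb3 encodes the enzyme that makes fructose 2,6-bisphosphate, the main activator of phosphofructokinase. In wild-type cultures it read 6.73, 6.79, 6.66 and 6.70 with scratch, against 7.31, 7.37, 7.37 and 6.99 without. It fell by 0.54 (SE 0.10, adjusted p = 0.0069) with no overlap between the groups, although a dimmer probe set of the gene gave 0.09. The call was lost in 3 of 29 alternative settings. Among these were the mean of both probe sets (-0.23, adjusted p = 0.12) and the fit without the 3 arrays that stood apart (-0.50, adjusted p = 0.067). In Mmp7-null cultures it read 6.72, 6.81, 7.08 and 6.76 with scratch and 6.84, 6.94, 7.0 and 7.24 without, a difference of -0.16 (SE 0.10, adjusted p = 0.5) between overlapping groups. Pkm, pyruvate kinase of the last step, was 11.91, 12.12, 12.21 and 12.14 in scratched and 12.31, 12.39, 12.38 and 12.40 in uninjured Mmp7-null cultures. The groups did not overlap, and Pkm fell by 0.28 (SE 0.06, adjusted p = 0.024). Its change was -0.33 within the Lys set and -0.23 within the Phe set, and neither passed (adjusted p = 0.093 and 0.45). The Pkm call was lost in 7 of 29 alternative settings. In wild-type cultures its difference was -0.15 (SE 0.06, adjusted p = 0.25), with overlap.

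Most of the listed enzymes after hexokinase had negative values. Of the 10 measured enzymes after hexokinase, counting Pfkfb3, 9 had negative values in each genotype, with medians of -0.13 in Mmp7-null and -0.15 in wild-type cultures. Over all genes above background, negative values were 6984 of 11656 in Mmp7-null and 6674 of 11656 in wild-type cultures, with medians of -0.04 and -0.03. Only Pkm in Mmp7-null and Pfkl and Pfkfb3 in wild-type cultures passed the test among these 10. The platelet phosphofructokinase Pfkp gave -0.31 and -0.22, aldolase A (Aldoa) -0.13 and -0.08, triosephosphate isomerase (Tpi1) -0.13 and -0.15 in Mmp7-null and in wild-type cultures. The phosphoglycerate enzymes Pgk1 and Pgam1 gave -0.19 and -0.07 in Mmp7-null cultures and -0.14 and -0.15 in wild-type cultures. Gapdh, often used as a constant control, gave -0.12 (SE 0.05, adjusted p = 0.19) in Mmp7-null and -0.02 (SE 0.05, adjusted p = 0.93) in wild-type cultures. The enzyme with positive values was Ldha, which makes lactate. Its difference was 0.02 in both genotypes, with 95% limits of -0.08 to 0.12 in each. Pdk1, the kinase that holds pyruvate dehydrogenase inactive, gave -0.05 (SE 0.14) and 0.13 (SE 0.14) and did not pass.

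**Figure D1:**
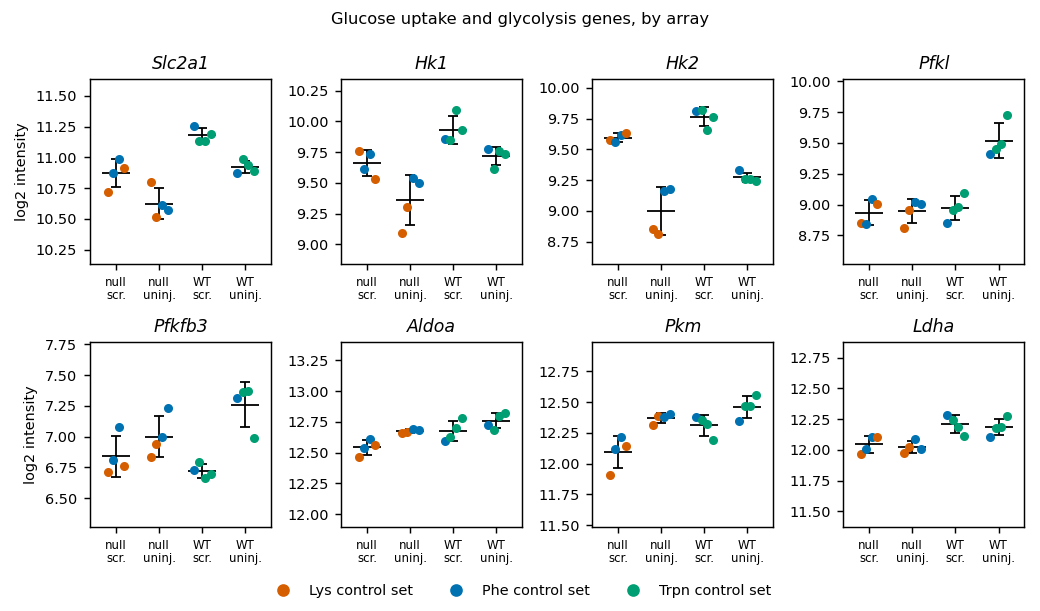
Log2 intensity (vertical axes) of 8 glucose uptake and glycolysis genes on each of 16 arrays, by group, with Mmp7-null (null) before wild-type (WT) and scratched (scr.) before uninjured (uninj.). Points are single cultures coloured by control set, long bars are means of 4 and whiskers are the SD. Scratched Hk2 arrays lie above the uninjured arrays of their genotype (9.56 to 9.63 against 8.81 to 9.18 in Mmp7-null), and uninjured wild-type Pfkl arrays (9.41 to 9.72) lie above the 12 others.

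Among the HIF targets, Ndrg1 rose about 1.97-fold in both genotypes and Adm 1.94-fold in Mmp7-null cultures. P4ha2 fell in both genotypes, and none of the other HIF genes passed in either. In Mmp7-null cultures 2 of 16 rose (Ndrg1 and Adm), 1 fell (P4ha2) and 13 did not pass. In wild-type cultures Ndrg1 rose, P4ha2 fell and 14 did not pass. The medians of the 16 were 0.15 in Mmp7-null and 0.05 in wild-type cultures, with positive values for 13 and 11 of them. Over all genes the medians were -0.02 and 0.01, with positive values for 5792 and 10609 of 18194, and the shares called are those given above. Among genes above background the medians were -0.04 and -0.03, with positive values for 4670 and 4980 of 11656.

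Hif1a encodes the oxygen-regulated subunit of the factor itself. Its mean level was 10.37 ± 0.09 in scratched and 10.37 ± 0.07 in uninjured Mmp7-null cultures, and 10.50 ± 0.10 in scratched and 10.47 ± 0.06 in uninjured wild-type cultures (SD, n = 4 each). The scratch differences were 0.00 (95% limits -0.13 to 0.13) and 0.03 (95% limits -0.10 to 0.16). No change in its RNA was detected, and the limits bound one at about 0.16 either way.

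The prolyl hydroxylases sense oxygen and are themselves HIF targets. Egln1 gave 0.09 (SE 0.11) in Mmp7-null and -0.12 (SE 0.11) in wild-type cultures. Egln3 had the largest difference of the list in Mmp7-null cultures and the widest spread. It read 6.08, 5.59, 5.92 and 6.10 in scratched Mmp7-null cultures, against 4.12, 3.62, 5.44 and 4.66 in uninjured ones. These groups did not overlap, but the difference of 1.47 (SE 0.48, adjusted p = 0.11) did not pass. It was 2.22 within the Lys set and 0.71 within the Phe set, and averaging the 2 probe sets of the gene gave 1.21 (adjusted p = 0.04). In wild-type cultures it read 5.02, 5.38, 3.24 and 5.65 with scratch and 4.39, 5.06, 3.88 and 4.23 without, a difference of 0.43 (SE 0.48, adjusted p = 0.74). The low value of 3.24 is wild-type scratched array 3, one of the 3 arrays that stood apart.

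Ndrg1, a stress-induced gene raised by hypoxia and by differentiation, had the smallest adjusted p of the list in both genotypes. Its values were 7.01, 6.85, 7.21 and 7.27 in scratched Mmp7-null cultures, against 6.14, 5.93, 6.17 and 6.18 in uninjured ones. In wild-type cultures they were 7.62, 7.55, 7.29 and 7.45 with scratch, against 6.71, 6.28, 6.64 and 6.41 without. Scratched and uninjured arrays were fully separated in both genotypes. Ndrg1 rose by 0.98 in Mmp7-null (SE 0.11, adjusted p = 0.00032, 1.97-fold) and by 0.97 in wild-type cultures (SE 0.11, adjusted p = 0.00015, 1.96-fold). Its 3 other probe sets above background gave 0.71 to 1.04 in Mmp7-null and 0.37 to 0.85 in wild-type cultures. Within sets the change was 1.11 (Lys) and 0.85 (Phe) in Mmp7-null and 0.99 (Trpn) and 0.91 (Phe) in wild-type cultures. The Phe value in Mmp7-null cultures did not pass (adjusted p = 0.065), and the wild-type one compares 1 array with 1.

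Adm encodes adrenomedullin, a secreted vasodilator peptide. It read 7.06, 6.67, 7.04 and 6.99 in scratched Mmp7-null cultures, against 6.00, 5.56, 6.15 and 6.23 in uninjured ones. These did not overlap, and Adm rose by 0.95 (SE 0.15, adjusted p = 0.0029, 1.94-fold), with 1.08 at a second probe set. The change was 1.24 within the Lys set (adjusted p = 0.013) and 0.66 within the Phe set (adjusted p = 0.21). In wild-type cultures it read 7.31, 7.06, 6.73 and 7.01 with scratch and 6.48, 6.47, 6.73 and 6.74 without. These groups overlapped and the difference of 0.42 (SE 0.15, adjusted p = 0.15) did not pass.

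P4ha1 and P4ha2 encode catalytic subunits of collagen prolyl 4-hydroxylase, which stabilises the collagen helix. P4ha2 read 9.16, 9.25, 9.48 and 9.41 in scratched Mmp7-null cultures, against 9.43, 9.75, 9.62 and 9.76 in uninjured ones. It fell by 0.32 (SE 0.08, adjusted p = 0.046), with scratched array 3 above uninjured array 1. In wild-type cultures it read 9.37, 9.53, 9.45 and 9.58 with scratch and 9.98, 9.93, 9.81 and 9.97 without, with no overlap. It fell by 0.44 there (SE 0.08, adjusted p = 0.0072), opposite in direction to Ndrg1. The wild-type call was kept with the control set as a block (adjusted p = 0.013). Within the Trpn set the change was -0.38 and did not pass (adjusted p = 0.11). The Mmp7-null call was lost with the control set as a block (adjusted p = 0.068). P4ha1 gave 0.26 (SE 0.09, adjusted p = 0.15) in Mmp7-null and 0.02 (SE 0.09, adjusted p = 0.95) in wild-type cultures.

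The remaining HIF targets did not pass in either scratch comparison. Vegfa, the main growth factor of vessels, gave -0.05 (SE 0.11) in Mmp7-null and 0.13 (SE 0.11) in wild-type cultures. Ddit4, an inhibitor of mTORC1, gave 0.43 (SE 0.13, adjusted p = 0.083) in Mmp7-null cultures, where scratched arrays 1 to 3 read 8.87, 9.09 and 9.07 and scratched array 4 read 8.46. Its difference was 0.00 (SE 0.13) in wild-type cultures. The mitophagy receptor Bnip3 gave 0.15 and 0.18 (SE 0.06 in each genotype), and Mxi1, an antagonist of MYC, gave 0.21 and 0.18 (SE 0.06 in each). For Mxi1 the groups did not overlap in either genotype, yet the adjusted p was 0.078 in Mmp7-null and 0.14 in wild-type cultures. Ankrd37 gave 0.32 and -0.36 (SE 0.17 in each), the mitochondrial protein Higd1a -0.14 and 0.07, and the histone H3K9 demethylase Kdm3a 0.02 and -0.05, in Mmp7-null and in wild-type cultures. Neither Kdm3a nor Ankrd37, both known HIF targets, passed.

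**Figure D2:**
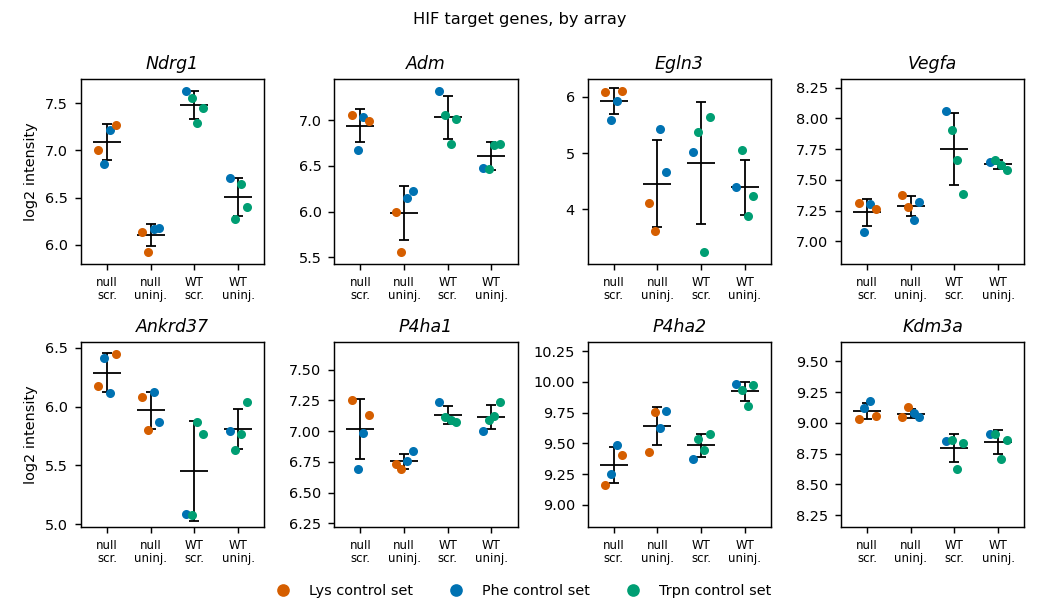
Log2 intensity (vertical axes) of 8 HIF target genes on each of 16 arrays, by group, with Mmp7-null (null) before wild-type (WT) and scratched (scr.) before uninjured (uninj.). Points are single cultures coloured by control set, long bars are means of 4 and whiskers are the SD. Ndrg1 separates scratched from uninjured cultures in both genotypes, Egln3 has the widest spread (SD 1.08 in scratched wild-type cultures), and Kdm3a separates the genotypes in both states.

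**Figure D3:**
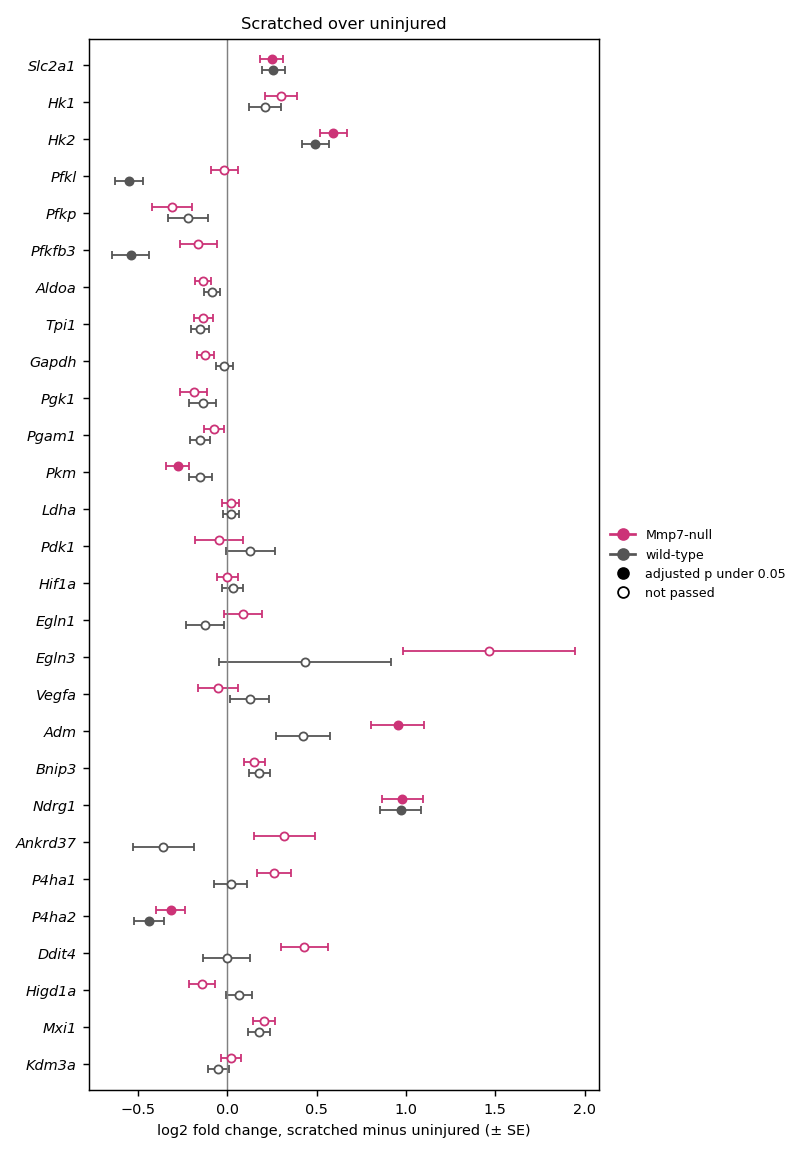
Log2 fold change of scratched over uninjured cultures (horizontal axis, with the standard error) for the 28 genes above background, in Mmp7-null and in wild-type cultures. Filled points passed an adjusted p of 0.05. Slc2a1, Hk2 and Ndrg1 lie right of 0 and P4ha2 left of 0 in both genotypes, and 9 of the 10 enzymes from Pfkl to Ldha lie left of 0 in each genotype.

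Markers of other airway cell states moved on scratching too. The basal marker Krt5 fell by 0.45 in Mmp7-null and 0.80 in wild-type cultures, and Trp63 fell by 0.48 in wild-type cultures. The summed intensity of the 4 basal markers, all above background, was 2515 to 3114 in scratched and 3201 to 3639 in uninjured Mmp7-null cultures, and 2123 to 2885 in scratched and 3712 to 3938 in uninjured wild-type cultures. The mucin Muc5b rose by 2.64 and 3.26 in Mmp7-null and in wild-type cultures, and the other 3 goblet markers did not pass, with Muc5ac and Foxa3 at background. The summed goblet intensity was 223 to 641 in scratched and 43.7 to 157 in uninjured Mmp7-null cultures, and 717 to 1099 in scratched and 110 to 126 in uninjured wild-type cultures. Of the 5 leukocyte markers Ptprc, Cd3e and Cd79a were at background, and Cd68 rose in wild-type cultures by 1.03. The leukocyte sum was 98.6 to 144 in scratched and 128 to 139 in uninjured Mmp7-null cultures, and 208 to 250 in scratched and 108 to 136 in uninjured wild-type cultures. The epithelial keratins Krt8 and Krt18 rose by 0.41 and 0.38 in Mmp7-null and by 0.51 and 0.60 in wild-type cultures. The sum of the 4 epithelial markers was 31078 to 35381 in scratched and 25469 to 28578 in uninjured Mmp7-null cultures, and 31936 to 34059 in scratched and 26301 to 27541 in uninjured wild-type cultures. Acta2, a marker of smooth muscle and myofibroblasts, rose in wild-type cultures by 1.07, and the sum of its list of 6 was 165 to 268 in scratched and 93.5 to 125 in uninjured wild-type cultures. No alveolar marker passed. The sum of the 4 was 1519 to 2666 in scratched and 2823 to 3201 in uninjured wild-type cultures, without overlap. Ager, by far the brightest of the 4, makes up most of this sum. The part of these cell types in the glycolysis and HIF values was not tested.

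Between genotypes, most of the 31 values were lower in Mmp7-null cultures, as were most values over all genes. In the uninjured state 1 of the 31 genes was higher in Mmp7-null cultures (Kdm3a) and 5 were lower (Slc2a1, Hk1, Pfkl, Adm and P4ha1), where 4.79% of all genes were called (2.3% higher and 2.5% lower). In the scratched state 2 were higher (Ankrd37 and Kdm3a) and 3 lower (Slc2a1, Vegfa and Higd1a), where 6.21% were called (3.29% higher and 2.92% lower). By list, 3 of 15 glycolysis genes were lower and none higher in uninjured cultures, and 1 of 15 was lower in scratched ones. Of the 16 HIF genes 1 was higher and 2 lower in uninjured cultures, and 2 were higher and 2 lower in scratched ones. The median difference of the 31 genes was -0.12 in uninjured and -0.07 in scratched cultures, against -0.01 and -0.04 over all genes. Negative values were 24 of 31 in uninjured and 22 of 31 in scratched cultures, against 11292 and 12362 of all 18194 genes. Among genes above background they were 6014 and 6485 of 11656.

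These genotype calls are tied to the control sets, since only the Phe set holds both genotypes. With the set as a block, 0 of the 6 calls in uninjured cultures and 1 of the 5 in scratched cultures were kept, although every one of the 11 kept its sign. Over all genes the block left 57 calls in uninjured and 252 in scratched cultures. How much of each difference belongs to genotype and how much to the set was not tested beyond these values. Without the 3 arrays that stood apart 10 members were called in uninjured and 3 in scratched cultures. Without uninjured Mmp7-null array 2, 1 member was called in uninjured cultures. The count there was 2 without uninjured Mmp7-null array 1 or without uninjured wild-type array 1, 3 or 4.

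Slc2a1 was lower in Mmp7-null cultures in both states. The difference was -0.31 (SE 0.06, adjusted p = 0.011) in scratched and -0.30 (SE 0.06, adjusted p = 0.016) in uninjured cultures, and the genotypes did not overlap in either state. With the set as a block the values were -0.31 and -0.30 (adjusted p = 0.17 and 0.28), and within the Phe set -0.33 and -0.28. The size thus stayed the same while the call was lost. Hk1 was lower in uninjured Mmp7-null cultures, at 9.09, 9.31, 9.54 and 9.50 against 9.77, 9.61, 9.76 and 9.73 in uninjured wild-type cultures, a difference of -0.36 (SE 0.09, adjusted p = 0.038). Its value was -0.26 with the block and -0.25 within the Phe set (adjusted p = 0.54 and 0.87). Ldha, at -0.16 (SE 0.05) in both states, separated the genotypes without overlap and did not pass (adjusted p = 0.058 in scratched and 0.069 in uninjured cultures). Ndrg1 likewise did not overlap between the genotypes in either state, with differences of -0.40 in scratched and -0.41 in uninjured cultures (SE 0.11 in each) that did not pass (adjusted p = 0.057 and 0.059).

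Pfkl was lower in uninjured Mmp7-null than in uninjured wild-type cultures, whose arrays are given above (-0.57, SE 0.08, adjusted p = 0.00098), and its second probe set gave -0.65. In scratched cultures the difference was -0.04 (SE 0.08, adjusted p = 0.77). The uninjured value was -0.42 with the block (adjusted p = 0.1) and -0.39 within the Phe set (adjusted p = 0.44). Adm differed by -0.62 between uninjured Mmp7-null and uninjured wild-type cultures (SE 0.15, adjusted p = 0.031) with no overlap. The value was -0.64 with the block (adjusted p = 0.32) and -0.29 within the Phe set (adjusted p = 0.89). P4ha1 read 6.73, 6.69, 6.76 and 6.84 in uninjured Mmp7-null cultures, against 7.0, 7.09, 7.12 and 7.23 in uninjured wild-type cultures. Its difference of -0.36 (SE 0.09, adjusted p = 0.046) was the least stable call, lost in 21 of 28 alternative settings.

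Vegfa was the genotype call that the block kept. It read 7.31, 7.08, 7.30 and 7.26 in scratched Mmp7-null cultures, against 8.06, 7.90, 7.66 and 7.39 in scratched wild-type cultures. The groups did not overlap, with the lowest wild-type value on array 4, one of those that stood apart. The difference was -0.51 (SE 0.11, adjusted p = 0.012), and -0.72 with the block (adjusted p = 0.039). It was -0.87 within the Phe set and -0.77 without the 3 arrays that stood apart (adjusted p = 0.00084). The latter fit keeps only scratched wild-type arrays 1 and 2, which hold the highest values of that group (8.06 and 7.90). The block links the genotypes through the Phe set alone, where scratched wild-type is array 1. That array read 8.06, the highest of its group. In uninjured cultures the difference was -0.34 (SE 0.11, adjusted p = 0.11), also without overlap. The call was lost with the mean of both Vegfa probe sets (-0.35, adjusted p = 0.16) and with only the 8 scratched arrays (-0.51, adjusted p = 0.13).

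Ankrd37 read 6.17, 6.41, 6.12 and 6.44 in scratched Mmp7-null cultures, against 5.09, 5.08, 5.87 and 5.76 in scratched wild-type cultures. It was higher in Mmp7-null cultures by 0.84 (SE 0.17, adjusted p = 0.01, 1.79-fold), and the wild-type arrays split into a low pair (arrays 1 and 2) and a higher pair (arrays 3 and 4, which stood apart). Without the 3 arrays that stood apart the difference was 1.24 (adjusted p = 0.0016). That fit keeps only the low pair for scratched wild-type cultures, so it is not a separate check. With the block the difference was 1.03 (adjusted p = 0.069). Higd1a was lower in scratched Mmp7-null cultures, at 11.02, 11.14, 11.20 and 11.16 against 11.30, 11.49, 11.57 and 11.73 in scratched wild-type cultures (log2 fold change -0.39, SE 0.07, adjusted p = 0.0055). Within the Phe set its value was -0.14 (adjusted p = 0.94), and without the 3 arrays it was -0.23 (adjusted p = 0.074). Kdm3a was higher in Mmp7-null cultures in both states, by 0.30 (SE 0.06, adjusted p = 0.0068) in scratched and 0.23 (SE 0.06, adjusted p = 0.037) in uninjured cultures. Its arrays spanned 9.03 to 9.18 in all Mmp7-null cultures and 8.63 to 8.91 in all wild-type cultures, with no overlap between genotypes. With the block the values were 0.26 and 0.19 (adjusted p = 0.17 and 0.5).

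**Figure D4:**
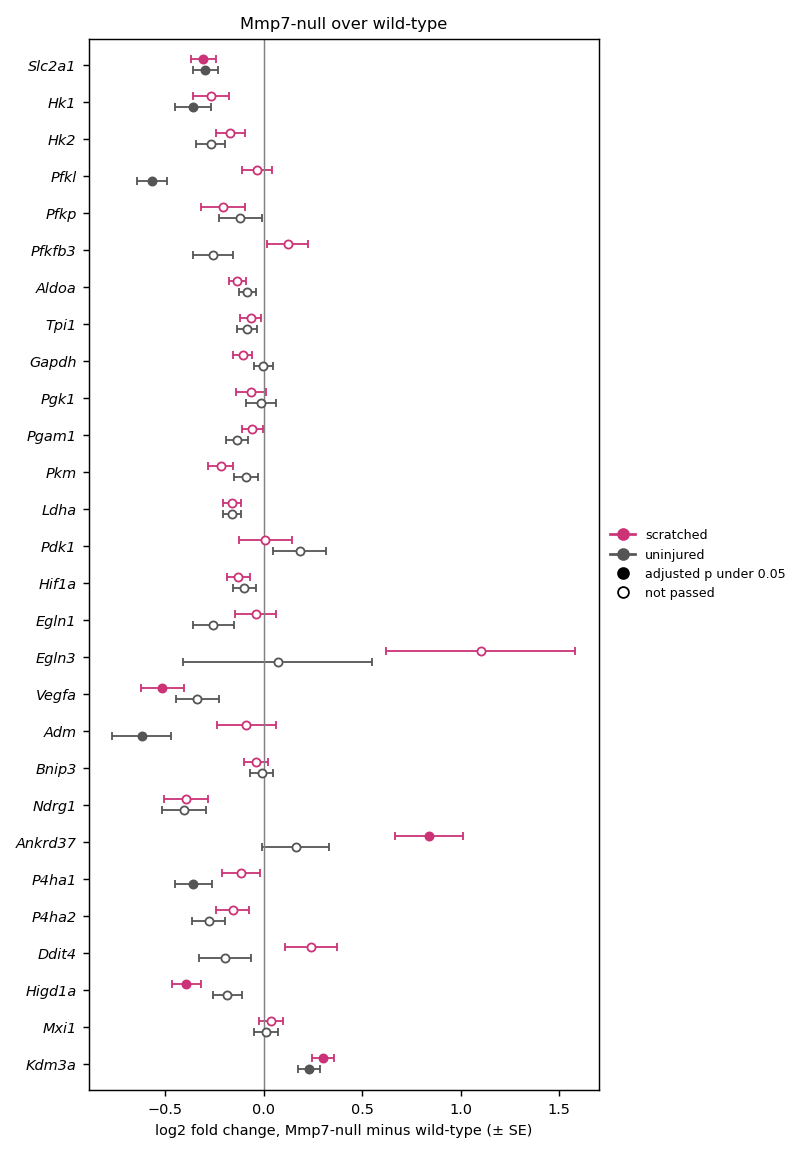
Log2 fold change of Mmp7-null over wild-type cultures (horizontal axis, with the standard error) for the 28 genes above background, in scratched and in uninjured cultures. Filled points passed an adjusted p of 0.05. Slc2a1 lies left of 0 and Kdm3a right of 0 in both states, while Pfkl (-0.04 scratched, -0.57 uninjured) and Ankrd37 (0.84 scratched, 0.16 uninjured) are far from 0 in 1 state.

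**Figure D5:**
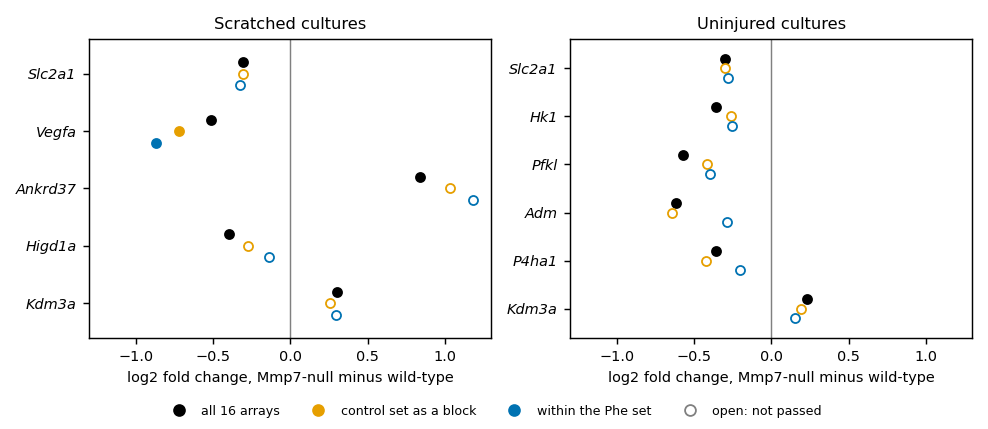
Log2 fold change of Mmp7-null over wild-type cultures (horizontal axis) for the 11 genotype calls, from all 16 arrays, with the control set as a block and within the Phe set. Filled points passed an adjusted p of 0.05. All 11 kept their sign, Vegfa in scratched cultures stayed filled with the block, and the other 10 are open with it. Within the Phe set each wild-type group is 1 array.

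Cell type markers differed between the genotypes as well, and the control-set limit of the genotype calls applies to them too. Of the 4 multiciliated markers Foxj1, Tekt1 and Ccdc39 were higher in Mmp7-null cultures in both states. Their summed intensity, Dnah5 included, was 2232 to 2743 in scratched Mmp7-null against 1304 to 1642 in scratched wild-type cultures, and 2300 to 2917 in uninjured Mmp7-null against 1525 to 1631 in uninjured wild-type cultures. The alveolar marker Ager was lower in Mmp7-null cultures (-2.35 scratched and -2.29 uninjured) and Sftpc higher (1.8 and 1.5 in the same states), all 4 alveolar markers being above background. The alveolar sum was 530 to 791 in scratched Mmp7-null against 1519 to 2666 in scratched wild-type cultures, and 746 to 956 in uninjured Mmp7-null against 2823 to 3201 in uninjured wild-type cultures. Acta2 was higher in Mmp7-null cultures by 1.10 and 1.37 in the scratched and uninjured state, while Col1a1, Col1a2, Pdgfra and Des of that list of 6 were at background. Its sum was 275 to 527 in scratched Mmp7-null against 165 to 268 in scratched wild-type cultures, and 173 to 280 in uninjured Mmp7-null against 93.5 to 125 in uninjured wild-type cultures. Of the other markers, Cd68 was lower in scratched Mmp7-null cultures (-0.92), Krt14 was higher in scratched Mmp7-null cultures (0.53), and Krt5 and Cdh1 were lower in uninjured Mmp7-null cultures (-0.36 and -0.23). Their lists did not move as a whole in uninjured cultures: 2 of 4 basal and 3 of 4 epithelial markers had positive values, none of which passed. The part of these cells in the genotype differences was not tested.

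The difference between the scratch responses of the genotypes was tested directly. None of the 31 genes passed by limma, where 0.132% of all genes were called (0.0275% higher and 0.104% lower). At an unadjusted p of 0.05, 5 of the 31 passed (Pfkl, Pfkfb3, Adm, Ankrd37 and Ddit4), against 1417 of all genes (7.79%). Pfkl came closest: the Mmp7-null response exceeded the wild-type one by 0.53 (95% limits 0.30 to 0.77, adjusted p = 0.09, and 0.032 with array weights), and by 0.63 at its second probe set. Ankrd37 gave 0.68 (SE 0.24, adjusted p = 0.49). It passed at 1.08 without the 3 arrays that stood apart (adjusted p = 0.042) and at 1.0 with array weights (adjusted p = 0.027). Leaving out the 3 arrays keeps only the low pair of scratched wild-type Ankrd37 values. Adm gave 0.53 (SE 0.21, adjusted p = 0.55). For Adm, Pkm, Pfkfb3 and Pfkl, called in only 1 genotype, a difference between genotypes is therefore not shown. Ndrg1 gave 0.01 (95% limits -0.34 to 0.36), Slc2a1 -0.01 (95% limits -0.21 to 0.19) and Hk2 0.10 (95% limits -0.13 to 0.33). These 3 intervals bound a genotype effect on the response, and for each the response itself was called in both genotypes.

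Other genes of the same pathways were read from 2 further lists. Of 31 measured genes around glycolysis and pyruvate, 1 rose and 1 fell on scratching in Mmp7-null cultures and 1 rose in wild-type cultures. These counts of 2 and 1 of 31 are near the 4.72% and 4.86% called over all genes. The gene that rose in both was Aldoc, a second aldolase that is also a hypoxia target. It read 9.49, 9.31, 9.10 and 9.40 in scratched Mmp7-null cultures, against 8.19, 7.84, 8.44 and 8.09 in uninjured ones. In wild-type cultures it read 8.92, 8.99, 8.79 and 9.41 with scratch, against 8.02, 7.98, 8.04 and 8.12 without. It rose by 1.19 in Mmp7-null (SE 0.14, adjusted p = 0.0003, 2.27-fold) and by 0.99 in wild-type cultures (SE 0.14, adjusted p = 0.00057, 1.99-fold), with no overlap in either, while Aldoa did not pass. Pdha1, a subunit of pyruvate dehydrogenase, fell by 0.19 in Mmp7-null cultures (SE 0.05, adjusted p = 0.034). Ldhb, the other lactate dehydrogenase subunit, was higher in uninjured Mmp7-null than in uninjured wild-type cultures (0.30, SE 0.08, adjusted p = 0.046). It was the only call of this list between genotypes, and the control-set limit given above for genotype calls applies to it.

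Of 31 further HIF pathway and target genes, 6 rose and 3 fell on scratching in Mmp7-null cultures, and 3 rose and 3 fell in wild-type cultures, where 4.72% and 4.86% of all genes were called. Those that rose in both were Edn1, the vasoconstrictor endothelin 1, Lox, a collagen cross-linking oxidase, and Ero1a, an oxidase of disulfide bond formation. Edn1 rose by 1.02 in Mmp7-null (SE 0.07, adjusted p = 4.4e-06) and by 1.5 in wild-type cultures (SE 0.07, adjusted p = 3.1e-08). Lox rose by 0.68 and 0.43, and Ero1a by 0.46 and 0.41, in Mmp7-null and in wild-type cultures. In Mmp7-null cultures Epas1 (HIF-2α, 0.24), Hmox1 (heme oxygenase 1, 0.55) and Igfbp3 (0.46) rose as well. Igfbp3 overlapped within the Lys set, at 10.77 and 11.17 with scratch and 10.88 and 10.83 without. In the Phe set it read 11.16 and 11.27 against 10.41 and 10.42. Epas1 read 14.16 and 14.28 against 13.79 and 13.81 in the Lys set, and 14.13 and 14.09 against 13.99 and 14.08 in the Phe set. Scratched Hmox1 arrays (8.26 to 8.62) lay above uninjured ones (7.77 to 7.96). Selenbp1 fell by 0.26 and 0.23, and Tfrc, the transferrin receptor, by 0.26 and 0.54, in Mmp7-null and in wild-type cultures. Mif fell in Mmp7-null cultures by 0.41 and Sap30 in wild-type cultures by 0.23. Between genotypes none was higher in Mmp7-null cultures and 3 were lower in each state, where 6.21% (scratched) and 4.79% (uninjured) of all genes were called. These were Edn1, Mif and Sap30 in scratched cultures (-0.32, -0.32 and -0.24) and Lox, Hif1an and Sap30 in uninjured cultures (-0.52, -0.31 and -0.25). The control-set limit of the genotype calls applies to them as well.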

How the data were processed

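Probe-set intensities of 16 arrays were used as the authors deposited them, on a linear scale. Per the submitters' processing notes they come from RMA, which corrects background, normalizes across arrays and summarises the probes of each set; its version and settings are not given in the sources used here. The table has 45101 probe sets, of which 34958 carry 1 symbol in GEO's platform annotation, 932 several and 9211 none; the last 2 kinds were left out. Control probe sets with a symbol (13) were kept, so that Gapdh is measured. Intensities were converted to log2 with no further normalization, with medians per array of 9.36 to 10.2 intensity units. No filter on dim genes was applied.

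Tests used limma 3.58.1 in R 4.3.3 (lmFit and eBayes, a mean for each of 4 groups, all 16 arrays, 12 residual degrees of freedom). P-values were adjusted by Benjamini-Hochberg over 18194 genes with a threshold of 0.05, in each of 5 comparisons. Background is the 95th percentile of 162 values of absent control transcripts. The script was tested on simulated data. The number of arrays limits the precision. The members and the other lists were chosen with earlier results of these data known, and the text names every member, Mmp7, every called gene of the 2 further pathway lists, and marker genes. Whether replicate numbers shared between groups pair the cultures is not known. Correlations of same-numbered deviations ran from -0.25 to 0.31, and differently numbered arrays were not compared, so these values cannot decide it. The repeat with control probe sets left out was chosen after seeing the data; the other alternatives were listed at the start. Protein sequences were not used here.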

Additional observations from a re-analysis of the deposited data

Results flagged for a closer look

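In 112 groups of 4 arrays, 7 had 1 array far from the other 3, by the gap to the nearest array over the group's range; chance gives about 1 in 20 groups. Pfkfb3 read 6.99 on wild-type uninjured array 4, against 7.31 to 7.37 on the others of its group, and the same array had Hif1a at 10.38, against 10.48 to 10.51. Adm read 6.67 on Mmp7-null scratched array 2, against 6.99 to 7.06. Kdm3a read 8.63 on wild-type scratched array 3, against 8.84 to 8.86. Mmp7-null uninjured arrays gave the other 3, all small in size: Pgk1 at 11.94 on array 4, against 12.03 to 12.05, Pgam1 at 10.65 on array 3, against 10.69 to 10.70, and Mxi1 at 9.30 on array 1, against 9.41 to 9.43.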

How the results depend on the processing

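The 23 calls of a member kept their sign in all 656 alternative fits and stayed past the threshold in 518. Hk2 kept its call in all 29 settings in both genotypes. The least stable were P4ha1 in uninjured cultures (lost in 21 of 28), Slc2a1 on scratching (19 of 29 in Mmp7-null and 13 of 29 in wild-type) and P4ha2 on scratching in Mmp7-null cultures (18 of 29). The 132 pairs without a call passed in 64 of 3695 fits, and 213 changed sign without a call. The cause of these shifts was not tested, except that fewer arrays leave fewer degrees of freedom.

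Counts of called members moved by over 1.5 times as follows. For scratch in Mmp7-null cultures (6) the count was 3 with only the 8 arrays compared and 1 within the Phe set (all genes 402 and 79, and 286 within the Lys set, against 858). For scratch in wild-type cultures (6) it was 12 with array weights and 1 within the Phe set (all genes 1405 and 204, and 418 within the Trpn set, against 884). For genotype in uninjured cultures (6) it was 0 with the control set as a block, 0 within the Phe set and 10 without the 3 arrays that stood apart (all genes 57, 42 and 1310, against 872). For genotype in scratched cultures (5) it was 1 with only the 8 arrays compared, 9 with array weights, 1 with the set as a block, 1 within the Phe set and 3 without the 3 arrays (all genes 527, 1745, 252, 223 and 787, against 1130). For the difference between responses (0) it was 2 with array weights (Pfkl and Ankrd37, all genes 100 against 24) and 1 without the 3 arrays (Ankrd37, 1.08, adjusted p = 0.042, all genes 50). Without the 3 arrays, scratched wild-type keeps only arrays 1 and 2. With repeated quantile normalization and with centred arrays the difference called 58 and 59 genes, and 37 with the dimmest 40% of genes removed, none a member.

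Leaving out each array in turn gave 3 to 6 members for scratch in Mmp7-null cultures (3 without uninjured Mmp7-null array 2, 3 or 4). The range was 5 to 7 for scratch in wild-type cultures. For genotype in uninjured cultures it was 1 to 6. There the count was 1 without uninjured Mmp7-null array 2, and 2 without uninjured Mmp7-null array 1 or uninjured wild-type array 1, 3 or 4. The range was 5 to 7 for genotype in scratched cultures and 0 to 0 for the difference. With the replicate number as a block the counts were 6, 5, 6 and 6 for the 4 comparisons in that order. The count was 1 for the difference (Pfkl, 0.53, adjusted p = 0.022, all genes 14). Whether these numbers pair the cultures is not known.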
